A study of Mus musculus with 29 samples.

Results

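The mitosis and G2/M genes described here are 38 genes chosen by symbol for their roles in the G2 phase and in mitosis, out of 28229 genes in the count table. All 38 were in the table and all 38 passed the filter on low counts, which left 14935 genes to test. Their levels were read in NMM cells, a line of mouse melanoma, in which NRAS is mutant in every group, controls included. Cells received a first stimulus for 2, 6, 12 or 24 h, either 100 ng/ml interferon gamma (IFNγ), 10 ng/ml transforming growth factor beta (TGFβ) or plain medium. They were washed and then received a second stimulus for 24 h. The 7 sequences with 4 libraries each, 1 for each first duration, were medium then medium, IFNγ then medium, TGFβ then medium, medium then TGFβ, IFNγ then TGFβ, medium then IFNγ, and TGFβ then IFNγ. One further library had 24 h of medium followed by a mix of IFNγ and TGFβ, which makes 29 libraries. The 4 libraries of a sequence thus differ in the length of the first step, and nothing in the labels says that they came from separate experiments, so p-values measure only the spread between these samples.

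Entry into mitosis is driven by CDK1 bound to cyclin A2 or B, switched on by the phosphatase CDC25C and by the kinases PLK1 and Aurora A. Condensed chromosomes then attach to the spindle through kinetochores, the spindle checkpoint holds the anaphase-promoting complex (APC/C) in check until all are attached, and CDC20 then directs the APC/C to cyclin B and to securin, the inhibitor of separase. Most genes of this programme are transcribed together late in the cell cycle: in G1 the DREAM complex holds them down through a promoter element called CHR (cell cycle genes homology region), and in G2 the B-MYB-MuvB complex and FOXM1 switch them on, often with NF-Y at nearby CCAAT boxes. IFNγ and TGFβ are both known for slowing proliferation in many cell types.

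The promoters of 31 of the 38 genes were matched in RefSeq (GRCm38.p6), as windows of 250 bases before to 50 after the start site. They are shown because most of the matched members, though not all, hold these elements, which the rule that chose the members did not use. A CHR element, searched as TTTGAA or TTCGAA on both strands, was present in 24 of the 31 windows (77.4%), against 19.2% of all 32851 promoter windows of the same length. A CCAAT box, CCAAT on both strands, was present in 23 (74.2%), against 37.4% of all windows. Both kinds were present in 21 (67.7%), against 7.52%. Among the 12821 windows of tested genes the shares were 13.9% for CHR, 38.2% for CCAAT and 5.78% for both. The windows of Birc5, Mad2l1, Nuf2, Nusap1 and Pttg1 held neither string. A match is a string of letters, not a measured binding site. The 120 bases before the RefSeq start site follow for 7 genes, the 6 first with 1 or more matches and Pttg1 with none, each 5′ to 3′ on the strand of its gene with CHR and CCAAT matches in capitals. Coordinates are chr11:99024190-99024309 for Top2a, chr10:69352913-69353032 for Cdk1, chr13:100786487-100786606 for Ccnb1, chr9:70421555-70421674 for Ccnb2, chr4:118437344-118437463 for Cdc20 and chr11:43425982-43426101 for Pttg1, all on the minus strand, and chr19:37376262-37376381 on the plus strand for Kif11.
Top2a: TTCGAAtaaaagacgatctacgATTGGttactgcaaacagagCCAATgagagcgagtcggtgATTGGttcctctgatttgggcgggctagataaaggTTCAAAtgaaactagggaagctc
Cdk1: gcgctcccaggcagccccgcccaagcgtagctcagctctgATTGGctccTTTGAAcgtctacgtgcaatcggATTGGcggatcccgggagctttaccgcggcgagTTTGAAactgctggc
Ccnb1: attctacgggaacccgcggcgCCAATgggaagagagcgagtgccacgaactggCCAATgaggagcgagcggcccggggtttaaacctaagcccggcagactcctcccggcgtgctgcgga
Ccnb2: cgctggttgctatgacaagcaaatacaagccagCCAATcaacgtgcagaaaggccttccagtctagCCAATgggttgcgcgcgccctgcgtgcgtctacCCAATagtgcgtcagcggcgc
Cdc20: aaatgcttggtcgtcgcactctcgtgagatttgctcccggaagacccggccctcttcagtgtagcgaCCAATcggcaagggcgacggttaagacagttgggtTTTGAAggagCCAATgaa
Kif11: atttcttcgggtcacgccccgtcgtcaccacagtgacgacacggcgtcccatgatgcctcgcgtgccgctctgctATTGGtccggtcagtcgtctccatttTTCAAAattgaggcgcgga
Pttg1: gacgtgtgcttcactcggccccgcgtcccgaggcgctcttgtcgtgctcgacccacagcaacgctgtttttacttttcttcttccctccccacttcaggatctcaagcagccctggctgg

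**Figure D1:**
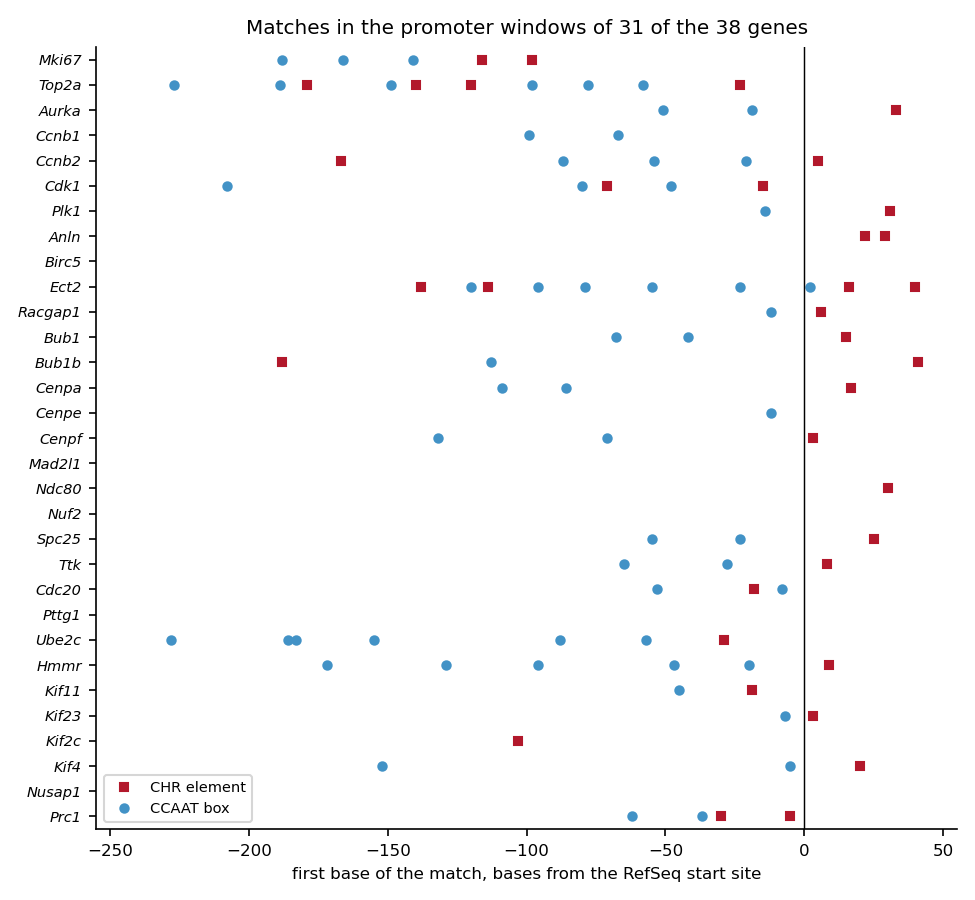
Positions of CHR and CCAAT matches in the promoter windows of 31 genes, by the distance of the first base of the match from the RefSeq start site (x axis, bases), 1 row for each gene. Squares are CHR matches and circles CCAAT matches, and the 5 empty rows are Birc5, Mad2l1, Nuf2, Nusap1 and Pttg1.

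The libraries held 17179530 to 23668015 counts, and single members 121 (Pttg1) to 21342 (Top2a) counts in a library. Levels below are CPM (counts scaled to library size) on library sizes scaled by the trimmed mean of M values (TMM), which allow comparison of a gene between libraries but not of levels between genes. Scaling factors were 0.925 to 0.976 in the 8 libraries that ended with IFNγ alone and 1.003 to 1.044 in the 20 others without the mix. Scaling by library totals alone put the median log2 change of all genes at -0.10 to -0.12 where an ending with IFNγ was set against another ending. With TMM it was -0.01 to 0.00, so counts of members under library totals are given too. Shares of all genes called under that scaling are not given, and the shares printed are from TMM fits. Mitf was at 8.40 to 20.2 CPM, while the melanocyte genes Pmel and Sox10 stayed at or below 0.444 and 0.135 CPM. Of the leukocyte markers, Ptprc stayed at or below 0.172 CPM, and Cd68 was at 2.84 to 6.18 CPM in every library.

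One library stood apart in these genes. In medium then medium at 6 h, 36 of the 38 members were at their lowest level of all 29 libraries, against 17.8% of all genes tested. The summed level of the 38 genes was 4887, 2539, 4987 and 5001 CPM at 2, 6, 12 and 24 h in this control. The 6 h library therefore held 0.512 of the mean of the other 3. The median log2 ratio of the members was -0.999, against -0.03 over all genes. Cdc25c, at 17.1 CPM, was low but not the lowest, and Pttg1, at 26.8 CPM, was at its highest of all libraries. Of 44 other G2/M genes 42 were at their lowest in the same library, as were 23 of 24 genes of DNA replication and G1/S. Igfbp5, which encodes an insulin-like growth factor binding protein, was at 4064 CPM there and at 428 to 568 CPM in the other 3. This library had the lowest total of all and a mitochondrial share of 1.24%, above the 0.841% to 0.868% of the other 3 controls and within the 0.596% to 1.31% of all libraries. Its summed leukocyte markers were at 5.60 CPM, within the 4.98 to 5.62 CPM of its group. What set it apart was not tested. Because it is 1 of 4 controls and also widens the spread that all comparisons share, the counts of members called are given with and without it.

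Without that library, the summed level of the 38 genes differed by the second stimulus, with a small overlap. It ran from 4709 to 5672 CPM in the 19 libraries that ended with medium or TGFβ (mean 5024 ± 222, SD) and from 5624 to 6298 CPM in the 8 that ended with IFNγ (5908 ± 255). The means differed 1.18-fold. Medium then IFNγ gave 6048 ± 294 CPM (SD, n = 4) and TGFβ then IFNγ gave 5768 ± 115 (n = 4). The ranges overlapped through TGFβ then medium with 24 h of TGFβ, at 5672 CPM. That library was above the 6 h libraries of medium then IFNγ (5624 CPM) and TGFβ then IFNγ (5671 CPM). The mix library was at 6108 CPM. Abundant genes weigh most in this sum. Top2a alone was at 859.6 to 1017 CPM in the 8 libraries ending with IFNγ and at 581 to 672 CPM in the 19 others. On a scale of raw counts the members took 0.524% to 0.601% of all counts in libraries ending with IFNγ and 0.479% to 0.572% in the 19 others, which overlapped more. Mitochondrial shares were 0.624% to 0.936% in the 8 libraries ending with IFNγ and 0.717% to 1.31% in the 20 ending with medium or TGFβ. Summed fibroblast and endothelial markers, a list of 7 genes, were at 16.5 to 25.7 CPM in medium then IFNγ. In TGFβ then IFNγ they were at 22.0 to 33.3 CPM, which overlapped the 26.2 to 29.3 CPM of medium. The 6 h medium library was the one at 29.3 CPM. Over all libraries Cdh5 was at 5.45 to 24.5, Pdgfra at 6.12 to 16.7 and Pdgfrb at 2.35 to 9.42 CPM, while Col1a1, Col1a2, Pecam1 and Kdr were at or below 0.751, 1.16, 0.279 and 0.0507 CPM. The part of either in the levels of the 38 genes was not tested. In bulk RNA, fewer cells of a type and less RNA per cell cannot be told apart, so these levels do not separate the share of cells in G2 and mitosis from the transcripts per cell.

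**Figure D2:**
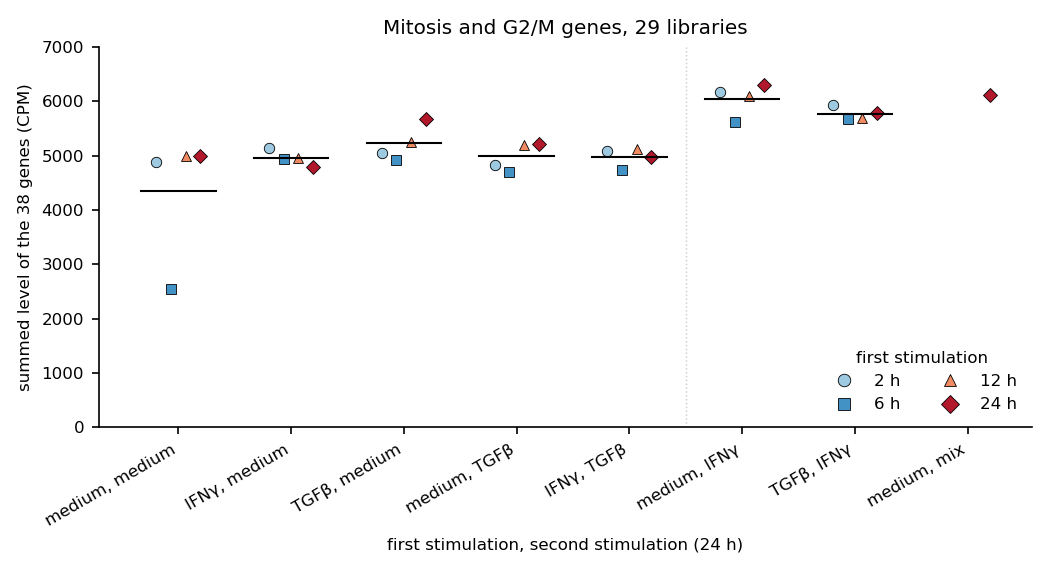
Summed level of the 38 genes in CPM (y axis) in each of 29 libraries, by sequence (x axis) and length of the first stimulation (marker), with the mean of each group of 4 as a bar. The 6 h medium control sits at 2539 CPM, and the libraries right of the dotted line, which ended with IFNγ or the mix, sit between 5624 and 6298.

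When IFNγ was given for the last 24 h after medium, most of the 38 genes rose over medium throughout. In the fit of all 29 libraries 28 of 38 were called higher (73.7%) and 0 lower, where called means an edgeR adjusted p below 0.05, against 22.7% of all genes higher and 21.2% lower. With the 6 h medium library left out 24 were called higher (63.2%) and 2 lower, Ccnb2 and Cdc25c, against 20.4% and 18.7% of all genes. The median change of the members was 0.41 on the log2 scale with the library and 0.21 without it, while the median over all genes was -0.01 in both fits. On library totals alone, without that library, 15 were called higher and 4 lower, with a median of 0.12, and Cenpa and Ndc80 joined Ccnb2 and Cdc25c. The median over all genes on that scale, with all libraries, was -0.10. In 20 of 38 genes all 4 IFNγ libraries lay above all 4 controls, against 18.1% of all genes. Top2a, which untangles replicated DNA, showed the greatest change and Cdc25c the lowest.

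Withdrawal of IFNγ gave a comparison without the medium control: medium then IFNγ against IFNγ then medium, which hold the same stimuli in opposite order, with IFNγ on for 24 h in the first and for 2 to 24 h in the second. Here 12 of 38 genes were called higher where IFNγ was present (31.6%) and 0 lower, against 20.8% of all genes in either direction. Leaving the 6 h medium library out of the fit gave 27 higher and 0 lower, against 23% and 22.4% of all genes. This removes no library of either group but alters the shared spread, the duration terms, the filter and the scaling. The median of the members was 0.21 in both fits, against -0.01 over all genes with all libraries. On library totals alone, without that library, 16 were called higher and 1, Kif20a, lower, where the median over all genes, with all libraries, was -0.11. Groups did not overlap for 18 genes, against 17.8% of all genes. Without the 12 h library of IFNγ then medium, 7 were called higher.

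Order of the cytokines gave a further comparison, TGFβ then IFNγ against IFNγ then TGFβ. With all libraries 8 of 38 genes were called higher where IFNγ came last (21.1%), near the 16.4% of all genes, and 0 were called lower, against 16.2%. When the 6 h medium library was left out 21 were called higher and 1 lower, Ccnb2, against 19.2% and 18.1% of all genes. Groups did not overlap for 14 genes in the higher direction, against 12.3% of all genes, and for 1, Ccnb2, in the lower one, against 11.5%. The median change was 0.14. On library totals alone, without that library, 10 were called higher and 4 lower, where the median over all genes, with all libraries, was -0.12. In the fit of all libraries the count fell to 2 or 3 when any of 5 libraries of these sequences was left out. The comparisons that end with IFNγ share libraries and their calls are not independent of each other.

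**Figure D3:**
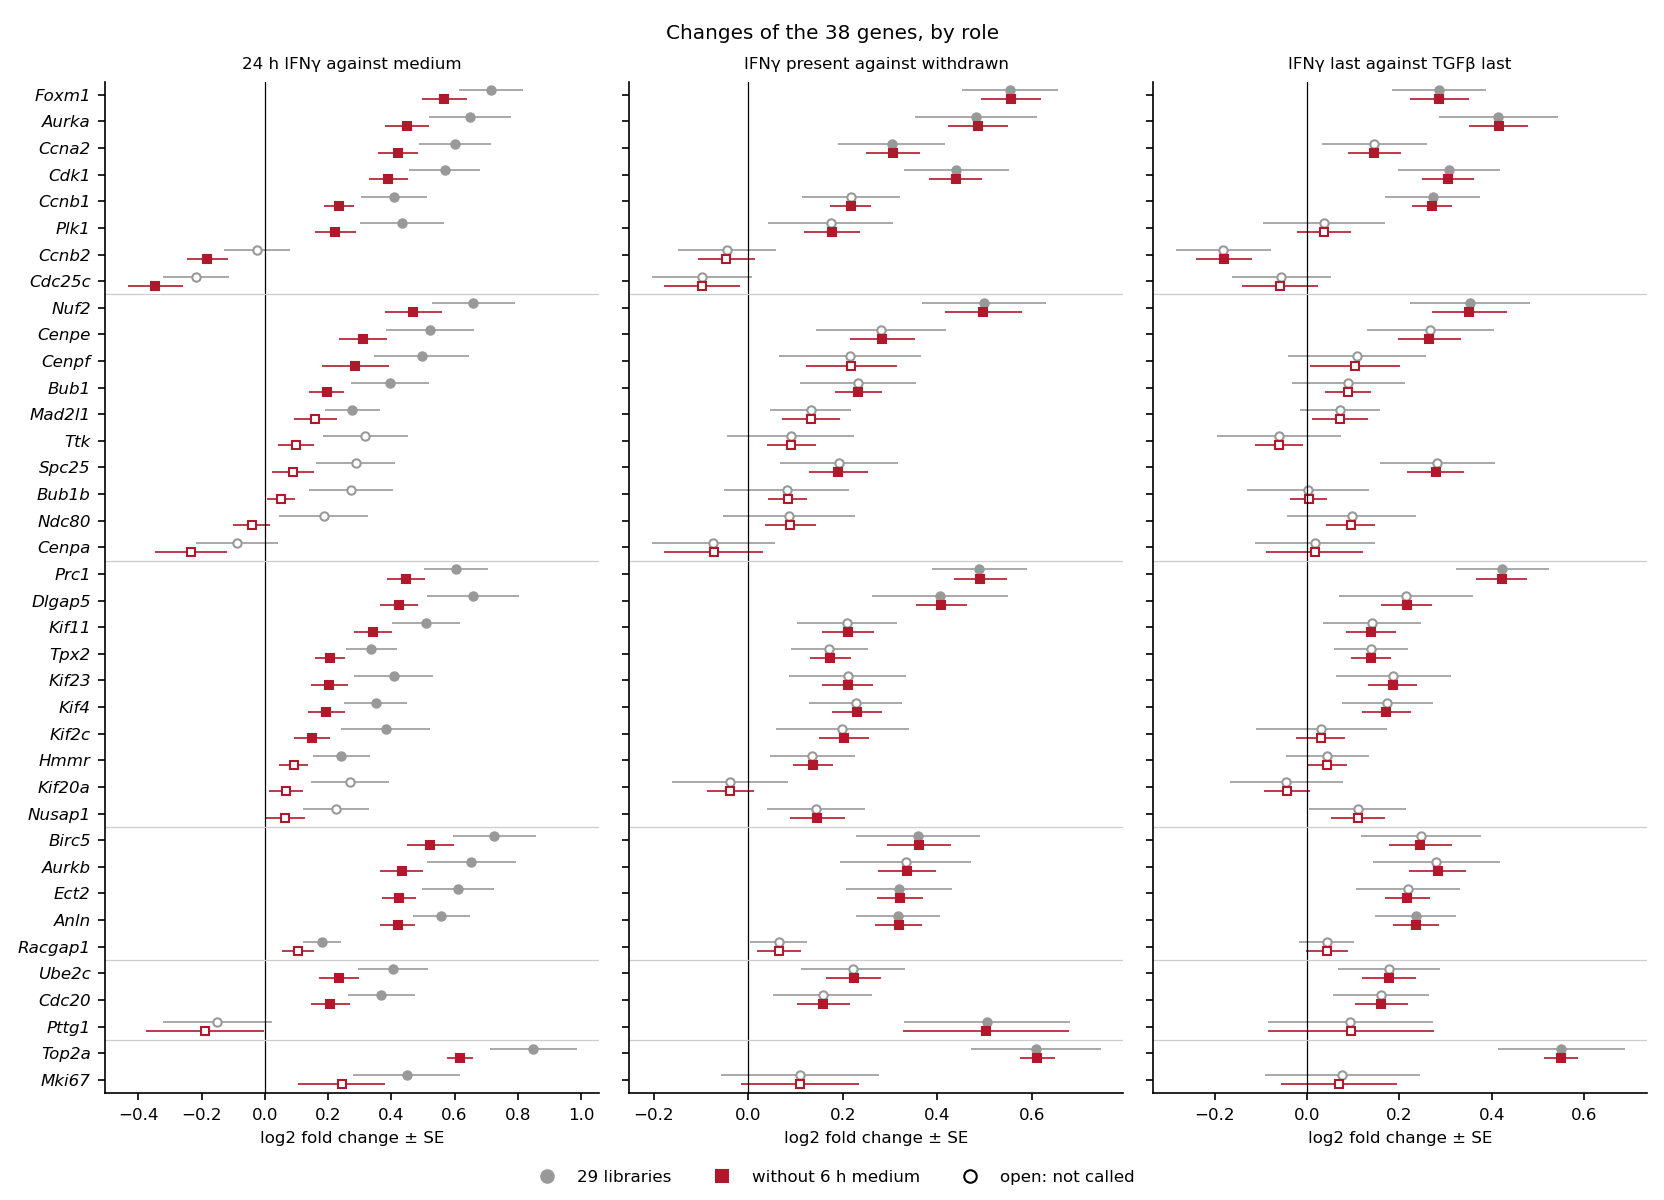
Log2 fold change with SE (x axis) of each of the 38 genes (rows, grouped by role) for 24 h of IFNγ against medium, IFNγ present against withdrawn, and IFNγ last against TGFβ last. Grey circles are the fit of 29 libraries, red squares the fit without the 6 h medium library, and filled markers are called: in the red fit 24, 27 and 21 genes were called higher.

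Among the 8 entry kinases, cyclins and their regulators, 6 were called higher with IFNγ after medium with and without the 6 h medium library, against 22.7% and 20.4% of all genes. Foxm1 (chr6:128362967-128376146), a transcription factor that switches on G2/M genes, was at 82.7, 48.6, 81.2 and 81.7 CPM at 2, 6, 12 and 24 h of medium and at 125, 111, 116 and 128 CPM in medium then IFNγ. All 4 libraries with IFNγ were above all controls. The change was 0.71 ± 0.10 (SE, edgeR adjusted p = 6.73e-06), and 0.57 ± 0.07 (SE, edgeR adjusted p = 1.57e-06) without the 6 h library. TGFβ before IFNγ gave 108, 98.9, 87.4 and 97.9 CPM, and the 4 remaining sequences stayed at 67.7 to 88 CPM. Cdk1 (chr10:69335146-69352938), the kinase at the centre of mitotic entry, was at 129, 63.8, 127 and 119.7 CPM in medium and at 164, 152, 153 and 173 CPM with IFNγ after it. These groups did not overlap, and the change was 0.57 ± 0.11, or 0.39 ± 0.06 without the 6 h library (adjusted p = 0.000249 and 2.74e-05, edgeR). Aurka, the Aurora A kinase of the spindle poles, rose by 0.65 ± 0.13, or 0.45 ± 0.07 without the 6 h library, with 120.02 to 147 CPM against 100 to 102 in the 3 other controls. Ccna2, cyclin A2, rose by 0.60 ± 0.11, or 0.42 ± 0.06.

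Cyclins B1 and B2, the partners of CDK1, went separate ways. Ccnb1 was at 57.3, 30.2, 54.1 and 54.5 CPM in medium and at 64.5, 64.6, 62.5 and 66.8 CPM in medium then IFNγ, and rose in both fits (0.41 ± 0.10 and 0.23 ± 0.05, edgeR adjusted p = 0.00268 and 0.000477). Ccnb2 was at 43, 27.6, 43.7 and 44.6 CPM in medium and at 41.5, 39.6, 39.7 and 35.7 CPM in medium then IFNγ. With the low 6 h control its change was -0.02 ± 0.10 and not called, and without it Ccnb2 was called lower at -0.18 ± 0.07 (SE, edgeR adjusted p = 0.0302), all 4 IFNγ libraries then being below the 3 controls. The ratio of Ccnb1 to Ccnb2, which no scaling of libraries alters, was 1.33, 1.09, 1.24 and 1.22 in medium and 1.56, 1.63, 1.57 and 1.87 in medium then IFNγ. It was 1.84, 1.91, 1.67 and 1.81 in TGFβ then IFNγ and 1.82 with the mix. In the 4 other sequences it ran from 1.198 to 1.66. This ratio was picked after the values were seen and was not tested. Both promoter windows hold CCAAT boxes, as printed above. They differ in the CHR strings searched, TTTGAA and TTCGAA, neither of which the window of Ccnb1 holds. Other forms of the element were not searched, and any link to the levels was not tested. That of Ccnb2 holds CHR matches at -167 and 5 bases from the start site, outside the printed bases.

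Plk1, the polo-like kinase that activates CDK1, was at 87.5, 39.3, 78.3 and 85.9 CPM in medium and 100.02, 89.2, 94.7 and 106 CPM in medium then IFNγ. It rose by 0.43 ± 0.13, or 0.22 ± 0.06 without the 6 h library. TGFβ then IFNγ gave 97.8, 90.4, 84.4 and 79.2 CPM, a range that overlapped that of medium. Cdc25c, the phosphatase that activates CDK1, behaved like Ccnb2, with 24.6, 17.1, 22.2 and 21.8 CPM in medium and 19.6, 19.5, 20.3 and 14.8 CPM in medium then IFNγ. Its change was -0.22 ± 0.10 (SE, edgeR adjusted p = 0.0968), and -0.35 ± 0.09 (SE, edgeR adjusted p = 0.00291) without the 6 h control. Cdc25c overlaps the antisense gene Gm3550, and with no statement on whether strand was used in counting, reads of the pair cannot be told apart. The same limit holds for 8 members in all, Cdc25c included. The others are Ccna2, Cdc20, Kif20a, Kif4, Ube2c, Nusap1 and Prc1, and most of these were called higher with IFNγ after medium.

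**Figure D4:**
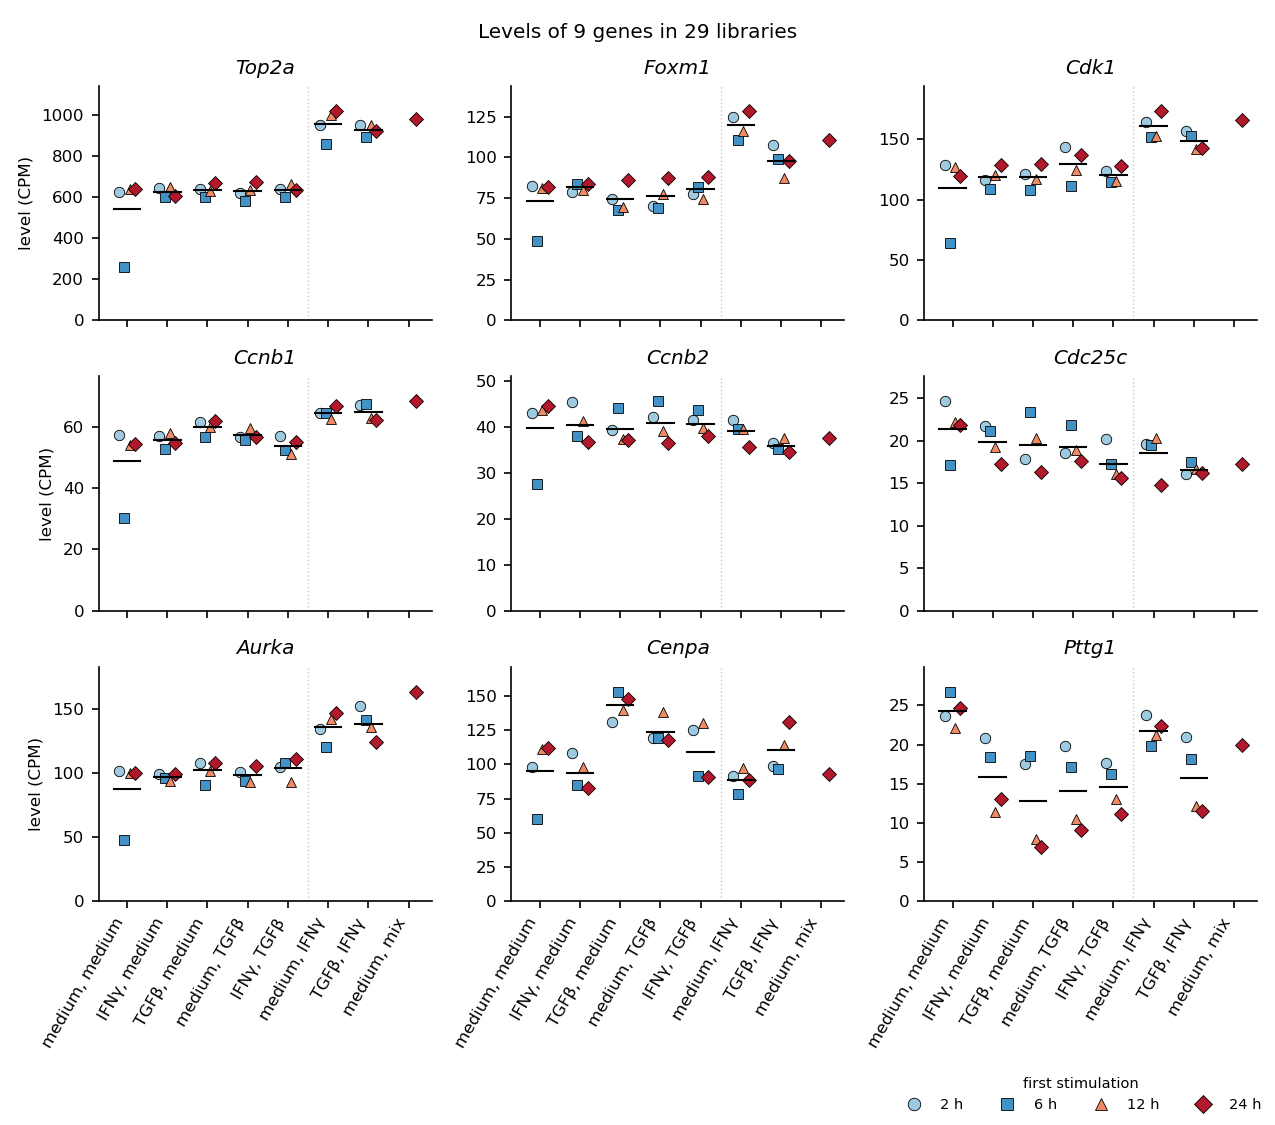
Levels in CPM (y axes) of 9 genes in each of 29 libraries by sequence (x axis) and length of the first stimulation (marker), with bars at the group means. Top2a, Foxm1, Cdk1, Ccnb1 and Aurka sit higher right of the dotted line, where IFNγ or the mix came last, while Ccnb2, Cdc25c and Cenpa do not, and Pttg1 is lowest at 12 and 24 h of 5 sequences.

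Of the 10 kinetochore and checkpoint genes, 5 were called higher with IFNγ after medium and 4 without the 6 h medium library, against 22.7% and 20.4% of all genes. This was a smaller share than in the other roles in that comparison, though roles were not tested against each other. Nuf2, a subunit of the NDC80 complex that grips microtubules, changed most of them and was at 102, 104, 96.6 and 96.7 CPM in medium then IFNγ against 71.6, 36.6, 72.6 and 76 CPM in medium. Its change was 0.47 ± 0.09 without the 6 h library (edgeR adjusted p = 0.000237). Its partners in the same complex, Ndc80 at -0.04 ± 0.06 and Spc25 at 0.09 ± 0.07, did not pass the test in that fit (adjusted p = 0.621 and 0.317, edgeR). Bub1, a checkpoint kinase, was at 77.1, 36.7, 82.7 and 81.6 CPM in medium and 90.6, 79.3, 93.6 and 97.4 CPM in medium then IFNγ, where the 6 h library with IFNγ lay below the 12 and 24 h controls, and rose by 0.20 ± 0.05 without the 6 h library. Cenpf, a large kinetochore protein, was at 210.4, 107, 266 and 225 CPM in medium and 291, 262, 277 and 289 CPM in medium then IFNγ, and rose by 0.29 ± 0.11 in that fit, although its ranges overlapped. Cenpe, a kinetochore motor, rose by 0.31 ± 0.08. The checkpoint genes Bub1b, Ttk and Mad2l1 were at 0.05, 0.10 and 0.16 and were not called without the 6 h library.

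Cenpa, the histone H3 variant that marks centromeres, followed neither pattern. It was at 97.9, 60.3, 111 and 112 CPM in medium, 91.2, 78.5, 97 and 88.8 CPM in medium then IFNγ, 131, 153, 140.2 and 148 CPM in TGFβ then medium and 98.5, 96.8, 114 and 131 CPM in TGFβ then IFNγ. TGFβ then medium was above every control library, and the change was 0.61 ± 0.13 (SE, edgeR adjusted p = 0.0011), or 0.46 ± 0.12 (SE, edgeR adjusted p = 0.00452) without the 6 h library. After TGFβ it was lower with a second IFNγ than with a second medium, at -0.39 ± 0.13 (SE, edgeR adjusted p = 0.0217), or -0.38 ± 0.10 without the 6 h medium library, and the 24 h library with IFNγ lay just inside the range of those with medium. After medium the change was -0.23 ± 0.11 without the 6 h library and did not pass the test (adjusted p = 0.112, edgeR). With TGFβ second it was at 119, 119, 139 and 118 CPM after medium and 125, 91.5, 130.4 and 90.6 CPM after IFNγ.

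Among the 10 spindle motors and assembly factors, 8 were called higher with IFNγ after medium and 7 without the 6 h medium library, against 22.7% and 20.4% of all genes. None was called lower, against 21.2% and 18.7%. Prc1, which bundles the microtubules of the central spindle, was at 181 to 221 CPM in the 8 libraries ending with IFNγ and at 133 to 171 CPM in the 19 others without the 6 h control. These did not overlap, and the change against medium was 0.45 ± 0.06 (SE, edgeR adjusted p = 4.72e-06) without that control. Over the 28 libraries without it, log2 levels of Prc1 followed the mean of the 37 other members most closely (r = 0.975), as a description of libraries that share depth and scaling. Kif11, the motor that pushes spindle poles apart, was at 114, 62.8, 116 and 118 CPM in medium and 151, 135, 143 and 151 CPM in medium then IFNγ. Its groups did not overlap, and it rose by 0.34 ± 0.06 without the 6 h library. Dlgap5, a microtubule-binding spindle factor, rose by 0.42 ± 0.06, and Tpx2, the activator of Aurora A, by 0.21 ± 0.05 in the same fit. Kif20a, a motor of the central spindle, was at 122, 57, 108 and 118 CPM in medium and 126, 120.2, 117 and 120.2 CPM in medium then IFNγ, which overlap, and its change was 0.27 ± 0.12, or 0.07 ± 0.05 without the 6 h control, not called in either. Kif20a shares its locus with Cdc23 on the other strand, as Kif4 does with Pdzd11, Nusap1 with Oip5 and Prc1 with Rccd1. Kif4, Kif23 and Kif2c were called higher by 0.19, 0.20 and 0.15, while Hmmr and Nusap1 were at 0.09 and 0.06 and were not called without the 6 h library.

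All 5 genes of the chromosomal passenger complex and cytokinesis were called higher with IFNγ after medium, and 4 of 5 without the 6 h medium library, against 22.7% and 20.4% of all genes. Aurkb, the Aurora B kinase of that complex, was at 36.2, 14.6, 33.2 and 37.6 CPM in medium and 47, 43.3, 48.9 and 49.3 CPM in medium then IFNγ, with no overlap, and rose by 0.65 ± 0.14, or 0.43 ± 0.07 without the 6 h library. Birc5, survivin, another subunit of the complex, was at 57.2, 26, 55.9 and 60.02 CPM and 82.9, 74.5, 78.8 and 88.7 CPM in the same groups and rose by 0.73 ± 0.13, or 0.52 ± 0.08. Anln, the cleavage furrow scaffold anillin, was at 323, 176, 323 and 328 CPM in medium, 405, 342, 460.4 and 469 CPM in medium then IFNγ and 334, 294, 377 and 365 CPM in TGFβ then IFNγ. Its rise after medium was 0.42 ± 0.05 (SE, edgeR adjusted p = 2.58e-06) without the 6 h library. With IFNγ last, Anln was lower after TGFβ than after medium, at -0.29 ± 0.09 (SE, edgeR adjusted p = 0.029), although the ranges overlapped. Ect2, which activates RhoA at the furrow, rose by 0.43 ± 0.05, and Racgap1, its partner, was at 0.10 ± 0.05 and not called without the 6 h library.

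Of the 3 APC/C partners and securin, Cdc20 and Ube2c were called higher in both fits, where 22.7% and 20.4% of all genes were. Cdc20, the mitotic activator of the APC/C, was at 56.4, 30.4, 50.6 and 57.3 CPM in medium and 67.1, 57.2, 61.5 and 63.8 CPM in medium then IFNγ, which overlapped in 1 pair of values, and rose by 0.21 ± 0.06 without the 6 h library. Ube2c, the ubiquitin-conjugating enzyme of the APC/C, rose by 0.23 ± 0.06. Pttg1, securin, followed another pattern that is described below.

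Top2a (chr11:98992943-99024189), topoisomerase II alpha, was at 626, 261, 639 and 638 CPM in medium, 644, 601, 646 and 607 CPM in IFNγ then medium, 638, 601, 628 and 667 CPM in TGFβ then medium, 621, 581, 631 and 672 CPM in medium then TGFβ and 640.1, 601, 661 and 632 CPM in IFNγ then TGFβ. With IFNγ last it was at 947, 859.6, 999 and 1017 CPM after medium and 952, 891, 949 and 919 CPM after TGFβ, and the mix library was at 981 CPM. All 8 libraries that ended with IFNγ were above all 20 that ended with medium or TGFβ. The change after medium was 0.85 ± 0.14 (SE, edgeR adjusted p = 3.15e-05), and 0.62 ± 0.04 (SE, edgeR adjusted p = 2.03e-10) without the 6 h library, a 1.54-fold rise. Mki67, the proliferation marker Ki-67, was at 350.4, 165, 419.7 and 368 CPM in medium and 465, 411, 427 and 421 CPM in medium then IFNγ, and its change was 0.45 ± 0.17 with the 6 h library and 0.24 ± 0.14 without it, when it was no longer called (edgeR adjusted p = 0.034 and 0.173). Its highest levels were in sequences with TGFβ, 592 CPM in TGFβ then medium at 24 h and 535 CPM in medium then TGFβ at 12 h.

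After a first TGFβ, a second IFNγ was compared with a second medium. Here 7 of 38 genes were called higher (18.4%), a share near the 18.8% of all genes, and 1, Cenpa, was called lower, against 17.6%. The 7 were Top2a, Aurka, Foxm1, Nuf2, Birc5, Cdk1 and Prc1. Top2a changed by 0.55 ± 0.14, Aurka by 0.45 ± 0.13 and Foxm1 by 0.41 ± 0.10. Without the 6 h medium library 13 were called higher (34.2%) and 3 lower, against 21.1% and 19.6% of all genes. The median over the members was 0.10 on the TMM scale and 0.00 on library totals without that library, when 8 were called higher and 8 lower. The median over all genes, with all libraries, was -0.01 with TMM and -0.11 on library totals. The direction of the members thus depends on the scaling, while their median was above that of all genes on both scales. Top2a, Aurka, Cdk1, Foxm1, Prc1, Ccnb1 and Cenpe had no overlap between the groups, against 12.5% of all genes. Without the 2 h library of TGFβ then medium, or the 6 h library of TGFβ then IFNγ, 3 genes were called higher, and 4 without the 2 h library of the latter. The call of Cenpa was lost without the 2, 6 or 12 h library of TGFβ then IFNγ or the 6 h library of TGFβ then medium.

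Whether the response to IFNγ differed after TGFβ was tested as an interaction. None of the 38 genes was called in either direction in the edgeR fit, against 0.321% of all genes higher and 0.0737% lower. At an unadjusted p under 0.05 there were 13 members, and DESeq2 called 2 lower. The shares given are of adjusted edgeR calls, and those of all genes for these 2 counts are not given. The median difference was -0.29, and -0.11 without the 6 h medium library, when 2 were called lower, against 0.134% of all genes. These were Anln, at -0.33 ± 0.07 (SE, edgeR adjusted p = 0.0387), and Ect2, at -0.32 ± 0.07 (SE, edgeR adjusted p = 0.0376), both with a smaller rise after TGFβ. Without the 2 h medium library 2 were called lower too. Directly between the sequences that end with IFNγ, 2 of 38 members, Anln and Pttg1, were called lower after TGFβ than after medium and 0 higher, against 7.19% and 8.64% of all genes. Foxm1 was at -0.29 ± 0.10 (SE, edgeR adjusted p = 0.0518) in that comparison. The count was 0 without the 12 or 24 h library of either sequence. Without the 6 h medium library Foxm1, Dlgap5 and Kif2c joined them and Cenpa was called higher, against 9.75% and 11.1% of all genes. On library totals or with upper-quartile scaling, without that library, 10 were called lower and 0 higher, so the call of Cenpa was lost.

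A first IFNγ followed by 24 h of medium left no member past the test. In the edgeR fit 0 of 38 were called against medium throughout, against 0.382% of all genes higher and 0.408% lower (0.79% in all). At an unadjusted p under 0.05 there were 8, and DESeq2 called 1 lower. All shares of all genes in this paragraph are of adjusted edgeR calls. They are no background for the unadjusted or DESeq2 counts, for which none is given. The median was 0.18, and 0.01 without the 6 h medium library, when 6 had an unadjusted p under 0.05 and 0 were called, against 0.436% of all genes. The levels of Top2a, Foxm1 and Cdk1 after washout overlapped those of the 3 other controls, as the plot of single genes shows. IFNγ before TGFβ likewise gave 0 called members against medium before TGFβ, against 0.0268% of all genes higher and 0.067% lower (0.0937% in all). Of the members, 1 had an unadjusted p under 0.05, and DESeq2 called 0. Without the 6 h medium library edgeR called 0 too, against 0.812% of all genes, with 6 at an unadjusted p under 0.05. The response to TGFβ after IFNγ gave 0 as well, against 3.62% of all genes higher and 3.64% lower (7.26% in all). Here too 1 had an unadjusted p under 0.05 and DESeq2 called 0. In the fit that left out the 6 h medium library 1, Anln, was called lower there, at -0.21 ± 0.05. The interaction of TGFβ with a first IFNγ called 0 members and 0% of all genes by edgeR, with 4 members at an unadjusted p under 0.05 and 0 called by DESeq2.

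TGFβ for the last 24 h moved few members. This comparison and the others against medium throughout share the same 4 controls. Against medium throughout 6 of 38 were called higher (15.8%) and 1 lower, against 11.7% and 11.6% of all genes. Without the 6 h medium library 1 was called higher, Aurkb at 0.23 ± 0.07, and 4 lower, against 10.4% and 10.6% of all genes. The 4 were Pttg1 at -0.88 ± 0.19, Cdc25c at -0.29 ± 0.09, Nusap1 at -0.19 ± 0.06 and Dlgap5 at -0.19 ± 0.06. The median of the members was 0.21 with that library and 0.01 without it. Leaving out the 6, 12 or 24 h library of medium then TGFβ left 1 to 3 called higher.

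A first TGFβ followed by medium gave 12 of 38 called higher (31.6%) and 1 lower, against 14.5% and 14.5% of all genes. Without the 6 h medium library 7 were called higher (18.4%) and 2 lower, Pttg1 and Cdc25c, against 13.5% and 13.2% of all genes. The 7 were Cenpa, Aurkb, Mad2l1, Ect2, Ccna2, Kif23 and Tpx2. Aurkb was at 41.8, 38.1, 42 and 45.9 CPM and rose by 0.26 ± 0.07. Mad2l1, the checkpoint protein that holds CDC20, was at 65.7, 54.3, 72.2 and 84.9 CPM against 63.2, 37.3, 61.2 and 60.8 CPM in medium and rose by 0.20 ± 0.07, with ranges that overlapped where those of Aurkb did not. Without the 24 h library of TGFβ then medium 4 were called higher. On library totals, without the 6 h medium library, 3 were called higher and 4 lower, so the balance of directions depends on the scaling. The median over all genes on that scale, with all libraries, was -0.02.

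Pttg1 (chr11:43420250-43426251) was the member with the greatest change under TGFβ and its level varied with the length of the first step. It was at 23.6, 26.8, 22.1 and 24.6 CPM at 2, 6, 12 and 24 h in medium and at 23.8, 19.8, 21.2 and 22.4 CPM in medium then IFNγ. In TGFβ then medium it was at 17.5, 18.6, 7.91 and 6.95 CPM, and in medium then TGFβ at 19.9, 17.1, 10.5 and 9.08 CPM. The low values were those at 12 and 24 h. IFNγ then medium gave 20.8, 18.4, 11.4 and 13 CPM, IFNγ then TGFβ 17.6, 16.3, 13.1 and 11.2 CPM and TGFβ then IFNγ 20.9, 18.2, 12.2 and 11.5 CPM, again with 12 and 24 h below 2 and 6 h. The change was -1.004 ± 0.18 (SE, edgeR adjusted p = 0.000204) for a first TGFβ and -0.85 ± 0.18 (SE, edgeR adjusted p = 0.00126) for a second TGFβ against medium, or -1.04 ± 0.19 and -0.88 ± 0.19 without the 6 h library, with no overlap of groups in either. A first IFNγ gave -0.66 ± 0.18, which did not pass the test (edgeR adjusted p = 0.0724), although all 4 libraries were below all 4 controls. Where IFNγ was last, Pttg1 was lower after TGFβ than after medium at -0.53 ± 0.18 (SE, edgeR adjusted p = 0.044), a call lost without any 1 of the 4 libraries of TGFβ then IFNγ or without the 12 or 24 h library of medium then IFNγ. IFNγ present against withdrawn gave 0.51 ± 0.18 (edgeR adjusted p = 0.0243), with ranges that overlapped.

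A trend with the first duration was tested as the mean slope over the 7 sequences on log2 hours. Pttg1 was the 1 member of 38 called lower, at -0.21 ± 0.03 (SE, edgeR adjusted p = 0.00261) for each doubling, and 0 were called higher, against 5.62% and 4.63% of all genes (10.2% in either direction). Its slopes in single sequences were -0.42 for TGFβ then medium, which was called, -0.34 for medium then TGFβ, -0.26 for TGFβ then IFNγ, -0.23 for IFNγ then medium, -0.19 for IFNγ then TGFβ, -0.02 for medium then IFNγ and 0.00 for medium. The slopes were not tested against each other, and a longer first step also means a longer time in culture. In medium then TGFβ the first step was medium and TGFβ was on for 24 h in every library, so there the length of the TGFβ step did not vary. Without the 6 h medium library Pttg1, Kif2c and Dlgap5 were called lower and Mad2l1 higher, against 8.44% and 7.81% of all genes. Without the 2 h medium library 24 members were called higher, and the share of all genes in that fit is not given. The low 6 h library was then the shortest control, and its part in these calls was not tested. The genes with levels most like Pttg1 over the 29 libraries, by the correlation of log2 CPM, were Nlgn2 (r = 0.941), Tent5a (0.941), Tmem106a (0.939) and Ly6e (0.932). None of the 38 was among the 10 most alike.

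**Figure D5:**
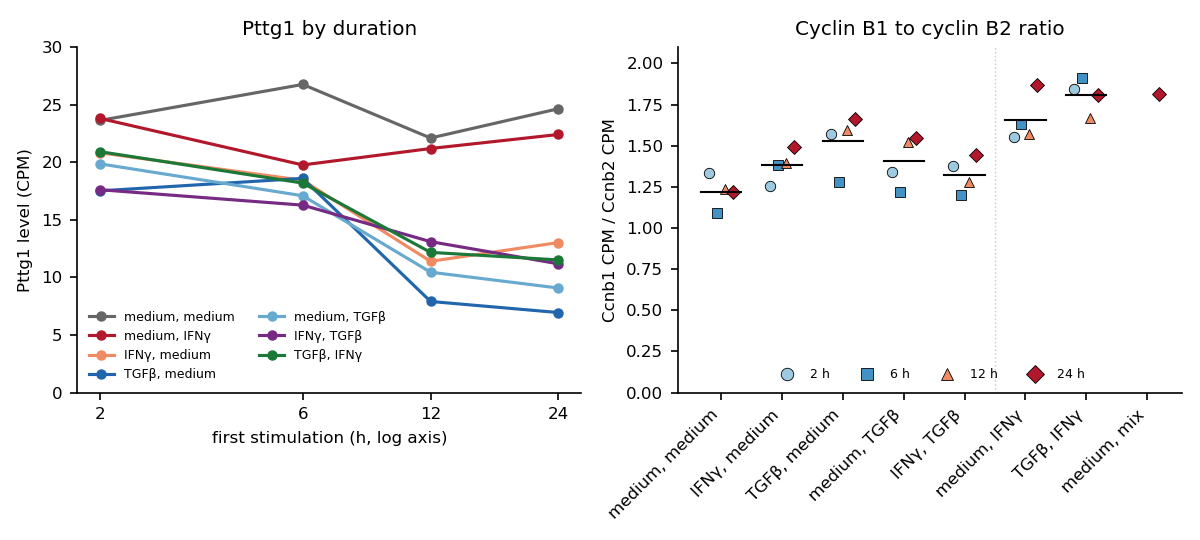
Left, Pttg1 level in CPM (y axis) against the length of the first stimulation in hours (log axis) for 7 sequences, which part at 12 and 24 h, when medium and medium then IFNγ sit at 21.2 to 24.6 CPM and the 5 others at 6.95 to 13.1 CPM. Right, the ratio of Ccnb1 to Ccnb2 CPM in each of 29 libraries, which is 1.09 to 1.33 in medium and 1.56 to 1.91 where IFNγ came last.

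The members did not vary as 1 block. Over all 29 libraries the first principal component of their log2 levels held 69.9% of the variance, and 49.95% over 28 libraries once the 6 h medium control was set aside. Over those 28, the correlation of each gene with the mean of the 37 others was over 0.8 for Prc1, Top2a, Ect2, Aurka, Nuf2, Foxm1, Kif11, Cdk1, Ccnb1, Aurkb, Ube2c and Cdc20. It was -0.473 for Ccnb2, -0.396 for Cdc25c and -0.363 for Cenpa. Kif20a, Mad2l1, Mki67 and Ndc80 were at 0.205 to 0.236, and Pttg1 was at 0.163. These are descriptions over libraries that share depth and scaling. With all libraries, the median change with IFNγ after medium was 0.40 for the 24 genes with a CHR match and 0.41 for the 7 matched genes without 1. It was 0.20 and 0.28 for IFNγ present against withdrawn, and 0.12 and 0.25 for IFNγ last against TGFβ last. The difference between these was not tested.

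Other genes of the cell cycle were read from lists chosen for their role. With IFNγ after medium 39 of 44 other G2/M genes were called higher and 0 lower, and 33 higher and 1, Psrc1, lower without the 6 h medium library, against 22.7% and 20.4% of all genes called higher. Melk, a mitotic kinase, had the greatest change of them, 1.57 ± 0.16 without that library, and Bub3, a checkpoint protein, was at 0.25 ± 0.06. Of 24 genes of replication and G1/S 22 were called higher and 0 lower, and 21 and 0 without the 6 h library. Tyms, thymidylate synthase, was at 0.28 ± 0.11 with all libraries and 0.14 ± 0.09, not called, without that library. Of 18 DREAM, B-MYB-MuvB and E2F genes 10 were called higher and 2 lower in both fits. Without the 6 h library Mybl2, which encodes B-MYB, rose by 0.99 ± 0.11, Rbl1, the pocket protein p107, by 0.88 ± 0.08 and E2f8, a repressor of the E2F family, by 0.61 ± 0.10. In that fit Tfdp2, an E2F partner, was at -0.51 ± 0.10 and Rbl2, the pocket protein p130, at -0.36 ± 0.08, both called lower. With all libraries E2f1 was at 0.32 ± 0.10 (SE, edgeR adjusted p = 0.011), and it was not called without the 6 h library.

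The genes that act before S phase also changed. Changes of single genes in this paragraph are from the fit without the 6 h medium library. Of 8 G1 cyclins and CDKs 6 were called higher with IFNγ after medium and 0 lower in both fits. Ccne1, cyclin E1, was at 20.9, 11.8, 23.1 and 25.7 CPM in medium and 88.8, 79.9, 72.8 and 90.2 CPM in medium then IFNγ, a change of 1.85 ± 0.21 without the 6 h library, and Ccnd1, cyclin D1, rose by 0.52 ± 0.09. Of the CDK inhibitors in the table, 5 of 7 listed, Cdkn1a, which encodes p21, rose by 0.39 ± 0.11 (SE, edgeR adjusted p = 0.00591), and Cdkn1b, which encodes p27, was called lower at -0.42 ± 0.07 (SE, edgeR adjusted p = 2.69e-05). Cdkn2a and Cdkn2b were not analysed here. Of 16 APC/C subunits and regulators 3 were called higher and 4 lower in both fits, with Fbxo5, the APC/C inhibitor EMI1, at 0.76 ± 0.10 and Anapc13 at -0.25 ± 0.09. Of 9 quiescence and growth arrest genes tested 4 were called higher and 3 lower in both fits, from Igfbp5 at -2.77 ± 0.13 to Klf4 at 0.70 ± 0.11. In the same comparison 20.4% of all genes were called higher and 18.7% lower.

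Where IFNγ was withdrawn or came first, the other G2/M genes were as follows. IFNγ present against withdrawn gave 20 of 44 called higher, or 34 higher and 1 lower without the 6 h medium library, against 20.8% and 23% of all genes called higher. IFNγ last against TGFβ last gave 8 (18.2%), near the 16.4% of all genes, or 26, against 19.2%. For the 24 replication and G1/S genes these were 12, or 20, and 5 (20.8%), or 14, with 0 called lower, against the same shares. Cdkn1a was higher with IFNγ present than withdrawn, by 0.67 ± 0.10 (SE, edgeR adjusted p = 1.12e-05), and Cdkn1b lower, at -0.33 ± 0.07 (SE, edgeR adjusted p = 0.000507). With TGFβ second after medium, Cdkn1a was called lower at -0.50 ± 0.10 (SE, edgeR adjusted p = 0.000755), and 3 of 5 CDK inhibitors were called lower. In the other G2/M list TGFβ second gave 8 of 44 higher and 1 lower, against 11.7% and 11.6% of all genes. It gave, when the 6 h library was left out, 4 (9.09%) and 5 (11.4%), near the 10.4% and 10.6% of all genes.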

How the data were processed

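Total RNA of 29 libraries was sequenced with a stranded mRNA kit, and reads were aligned with HISAT to GRCm38, per the submitters' processing notes and the labels. The authors deposited raw counts per gene. The sources used here do not give the counting tool, its strand setting or the HISAT version. Libraries held 17179530 to 23668015 counts, which limits the precision of low genes such as Pttg1.

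Genes were kept by edgeR's filterByExpr (minimum count 10), which left 14935 of 28229, or 14907 without the 6 h medium library. Counts were scaled by TMM and tested with edgeR 4.0.16 (quasi-likelihood, R 4.3.3) over all libraries with group and first duration as terms. Benjamini-Hochberg adjustment ran over all genes, with a call at 0.05. SE is the log2 fold change divided by the square root of F. DESeq2 1.42.0, other scalings, no filter, no replicate block, only the groups compared and single libraries left out were alternatives. The fits without the 6 h medium library under each scaling were chosen after seeing the data. The pipeline was tested on simulated data.

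The labels give the first duration of each of the 4 libraries of a sequence but no replicate number, and the duration was used as the replicate block. Deviations of same-duration libraries correlated above 0.1 for every pair in 4 of 10 comparisons. The members and lists were chosen with earlier results of these data known. Genes named are the 38 members, of which 16 were set to be given in every library together with those of highest and lowest change in each comparison, genes of the other lists with high or low change, and the genes most like Pttg1.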

Additional observations from a re-analysis of the deposited data

Results flagged for a closer look

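In groups of 4 libraries, the highest or lowest library was set against the others by its gap over the range of the group and to Dixon's 95% critical value, which chance exceeds in about 1 in 20 groups. Of 133 groups tested 15 held such a library, and in 10 of them it was the 6 h library of medium throughout. There the summed level of the 38 genes was 2539 CPM, with Cdk1 at 63.8, Ccnb1 at 30.2, Ccnb2 at 27.6, Foxm1 at 48.6 and Bub1 at 36.7 CPM. In the same library Kif11 was at 62.8, Anln at 176, Top2a at 261 and Birc5 at 26.0 CPM. Each of these was the lowest of its group.

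The other 5 lay in other sequences. Cdc25c was low at 14.8 CPM in the 24 h library of medium then IFNγ. Bub1 was high at 95.8 CPM in the 12 h library of TGFβ then IFNγ. Mki67 was high at 441 CPM in the 2 h library of IFNγ then medium and at 515 CPM in the 24 h library of TGFβ then IFNγ. Cenpa was high at 139 CPM in the 12 h library of medium then TGFβ.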

How the results depend on the processing

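None of the 42 single-gene values followed changed sign under the alternatives run, but the balance of higher and lower members did turn: for TGFβ after medium from 6 and 1 to 1 and 5, and for a first TGFβ from 12 and 1 to 3 and 4, on library totals without the 6 h medium library. Of the values for single genes 629 stayed on their side of the threshold and 160 kept their direction but lost the call. Of the counts and summed levels 472 stayed within the limits set and 119 moved. The cause of these moves was not tested. Leaving out the 6 h medium library moved counts both in comparisons that hold it and in those that do not. With 1 library for each duration the spread within a sequence includes any effect of duration, and Pttg1, with as few as 121 counts, is the least precisely measured member.

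Without the replicate block (the first duration, which pairs the libraries), IFNγ after TGFβ had 3 members called higher and 0 lower, and TGFβ after medium 0 in either direction. A first TGFβ had 4 higher, IFNγ present against withdrawn 7 higher, TGFβ before IFNγ 0 lower and IFNγ last against TGFβ last 3 higher. With only the groups compared in the fit, TGFβ after medium and a first TGFβ had 0 in either direction, and TGFβ after IFNγ 2 higher and 2 lower. IFNγ present against withdrawn then had 27 higher, IFNγ last against TGFβ last 14 higher, and TGFβ before IFNγ 1 higher and 4 lower. DESeq2 called 1 lower for a first IFNγ and 2 lower for the interaction of IFNγ with TGFβ. With no filter on low counts 1 was lower for a first IFNγ.

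On library totals alone IFNγ after medium had 1 lower, IFNγ after TGFβ 3 higher and 3 lower, and TGFβ after medium 3 higher. IFNγ present against withdrawn had 6 higher, and IFNγ last against TGFβ last 2 higher and 1 lower. The mean summed level was then 5147 CPM in IFNγ then medium and 5448 CPM in TGFβ then IFNγ. With upper-quartile scaling IFNγ after medium had 1 lower, IFNγ after TGFβ 3 higher and 3 lower, IFNγ present against withdrawn 7 higher and IFNγ last against TGFβ last 3 higher. The mean summed level was 5505 CPM in TGFβ then IFNγ.

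Scalings without the 6 h medium library were tried after seeing the data and are given for RLE, upper-quartile and library totals, in that order. IFNγ after medium had 24, 18 and 15 higher and 2, 3 and 4 lower. IFNγ after TGFβ had 15, 8 and 8 higher and 2, 8 and 8 lower. TGFβ after medium had 1, 2 and 1 higher and 4, 4 and 5 lower, and TGFβ after IFNγ 1 lower in each. A first TGFβ had 5, 10 and 3 higher and 3, 3 and 4 lower. IFNγ present against withdrawn had 27, 20 and 16 higher and 0, 1 and 1 lower. TGFβ before IFNγ had 1, 0 and 0 higher and 6, 10 and 10 lower. IFNγ last against TGFβ last had 21, 12 and 10 higher and 1, 3 and 4 lower, and the interaction of IFNγ with TGFβ 2 lower in each.

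Leaving out 1 library at a time gave these ranges. IFNγ after medium had 0 to 2 lower, IFNγ after TGFβ 3 to 13 higher and 0 to 3 lower, and TGFβ after medium 1 to 9 higher and 1 to 4 lower. TGFβ after IFNγ had 0 to 1 lower, a first IFNγ 0 to 1 in either direction, and a first TGFβ 4 to 17 higher and 1 to 2 lower. IFNγ present against withdrawn had 7 to 27 higher, TGFβ before IFNγ 0 to 1 higher and 0 to 5 lower, and IFNγ last against TGFβ last 2 to 21 higher and 0 to 1 lower. The interaction of IFNγ with TGFβ had 0 to 2 lower, and the trend with duration 0 to 24 higher and 1 to 3 lower.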
